A study of Mus musculus with 6 samples.

Results

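The genes described here were 52 members of the noncollagenous extracellular matrix, chosen by gene symbol: the proteins of microfibrils and elastic fibres, the lysyl oxidases, adhesive and matricellular glycoproteins, small leucine-rich proteoglycans with versican, and the proteins of the basement membrane. The choice went by name and used no measured values, but it was made with earlier results of the same data known. All 52 were found among the 24421 rows of the authors' tables. RNA had been collected from mesenchyme of the anterior palate of C57BL/6 mouse embryos at E12.5, freed of its epithelium with Dispase II. The 3 mutant samples were Wnt1Cre;Meis2f/f, in which a Cre recombinase driven by Wnt1 sequences, active in neural crest and its descendants, recombines a floxed Meis2 gene, and the 3 control samples were wildtype. The controls are labelled wildtype and no sample carried Cre without the floxed allele, so effects of the Cre transgene and of the lost Meis2 gene cannot be told apart. The 3 samples of a genotype are biological replicates according to the labels, which do not state whether embryos were pooled. Meis2 encodes a homeodomain transcription factor of the TALE family.

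Elastic fibres are laid down as elastin on a scaffold of fibrillin microfibrils, with fibulins and emilins assisting assembly and lysyl oxidases cross-linking the product. Basement membranes are sheets of laminin and type IV collagen, joined by nidogens and by the heparan sulphate proteoglycans perlecan and agrin, and they lie under epithelia and endothelia and around muscle fibres, peripheral nerves and fat cells. In the palate the shelves grow from neural crest mesenchyme whose loose matrix holds versican, hyaluronan, fibronectin and tenascin, and latent TGF-beta is stored there on microfibrils by latent TGF-beta binding proteins.

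The authors' deposited table of all libraries compared 3 against 3, and a smaller deposited table compared 4 of the same libraries, 2 against 2. Neither table has a column per library, but whole reads per library could be computed back from the base means (each the average over libraries of counts scaled by size factor) for 14242 of the 14559 genes whose base mean reached 10, here called measured genes. The libraries are called A, B and C on the mutant side and D, E and F on the wildtype side, since their replicate numbers are not known, and C and F are those absent from the smaller table. Reads recovered per library ran from 8046595 to 14577462. Meis2, the targeted gene, had normalised counts of 1250, 1218 and 1378 in A, B and C and of 1526, 1695 and 1549 in D, E and F. Fold changes were taken as mutant over wildtype since this makes Meis2 the lower in the mutant, and every direction here depends on that choice. Meis2 is therefore no check of the labels. The authors' deposited table of 6 libraries gave Meis2 a log2 fold change of -0.28 (standard error 0.0917, adjusted p = 0.0743, DESeq2 Wald test), and that of 4 libraries gave -0.33 (adjusted p = 0.0213).

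Libraries C and F, the ones absent from the smaller table, were given a shared term in an added fit. A limma test on the recovered reads called 306 of 14242 genes (2.15%) between the genotypes. It called 1444 (10.1%) when a term for C and F was added, a term added once the data had been seen. No other pair of libraries was given a term, so the rise cannot be set against that from other pairs. Every gene of the set called in either table is given with and without C and F, from the 6-library and the 4-library table, which are not independent of each other.

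Of the 52 genes, 10 passed an adjusted p under 0.05 between the genotypes in the 6-library comparison, against 2.90% of all 14942 genes tested. Higher in the mutant were Cilp, Efemp1, Lox, Lama2, Lama1, Ltbp1 and Thbs3, 7 genes against 1.75% of all genes. Lower were Aspn, Thbs1 and Postn, 3 genes against 1.16% of all genes. In the 4-library comparison 11 passed, against 2.30% of all 14548 genes tested: 9 were higher, against 1.31% of all genes, and 2 lower, against 0.990%. The 2 lists shared 9 genes; Aspn was not called with 4 libraries, and Lamb2 and Vcan were called with 4 libraries and not with 6. An adjusted p stood in the authors' deposited table of 6 libraries for 49 of the 52. In bulk samples such as these, fewer cells of a type and less RNA per cell cannot be told apart. The counts describe genes chosen with earlier results of the same data known.

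Across the 48 measured genes the median log2 fold change was 0.09 with 6 libraries and 0.09 with 4, against -0.013 over all measured genes. Between libraries, the median log2 level of the 42 with recovered reads had an SD of 0.116, larger than that median. The values of the authors' deposited table ran from -0.80 for Aspn to 1.36 for Cilp, and 33 of the 48 were above 0. Most of these genes therefore lay within a narrow band, with a few well outside it on either side. Whole reads were recovered for 42 of the 48, and the normalised counts of the genotypes did not overlap for 15 of them, where 17.6% of all recovered genes did not overlap. Of these, 11 were higher, against 8.80% of all recovered genes, and 4 lower, against 8.84%. The genes without recovered reads were Fbn1, Fbn2, Fn1, Tnc, Postn and Vcan, whose base means of 9422 to 52449 were too high. Mfap5 at a base mean of 3.69, Prelp at 5.51, Tnxb at 7.45 and Cilp2 at 9.46 were too low to count as measured.

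**Figure D1:**
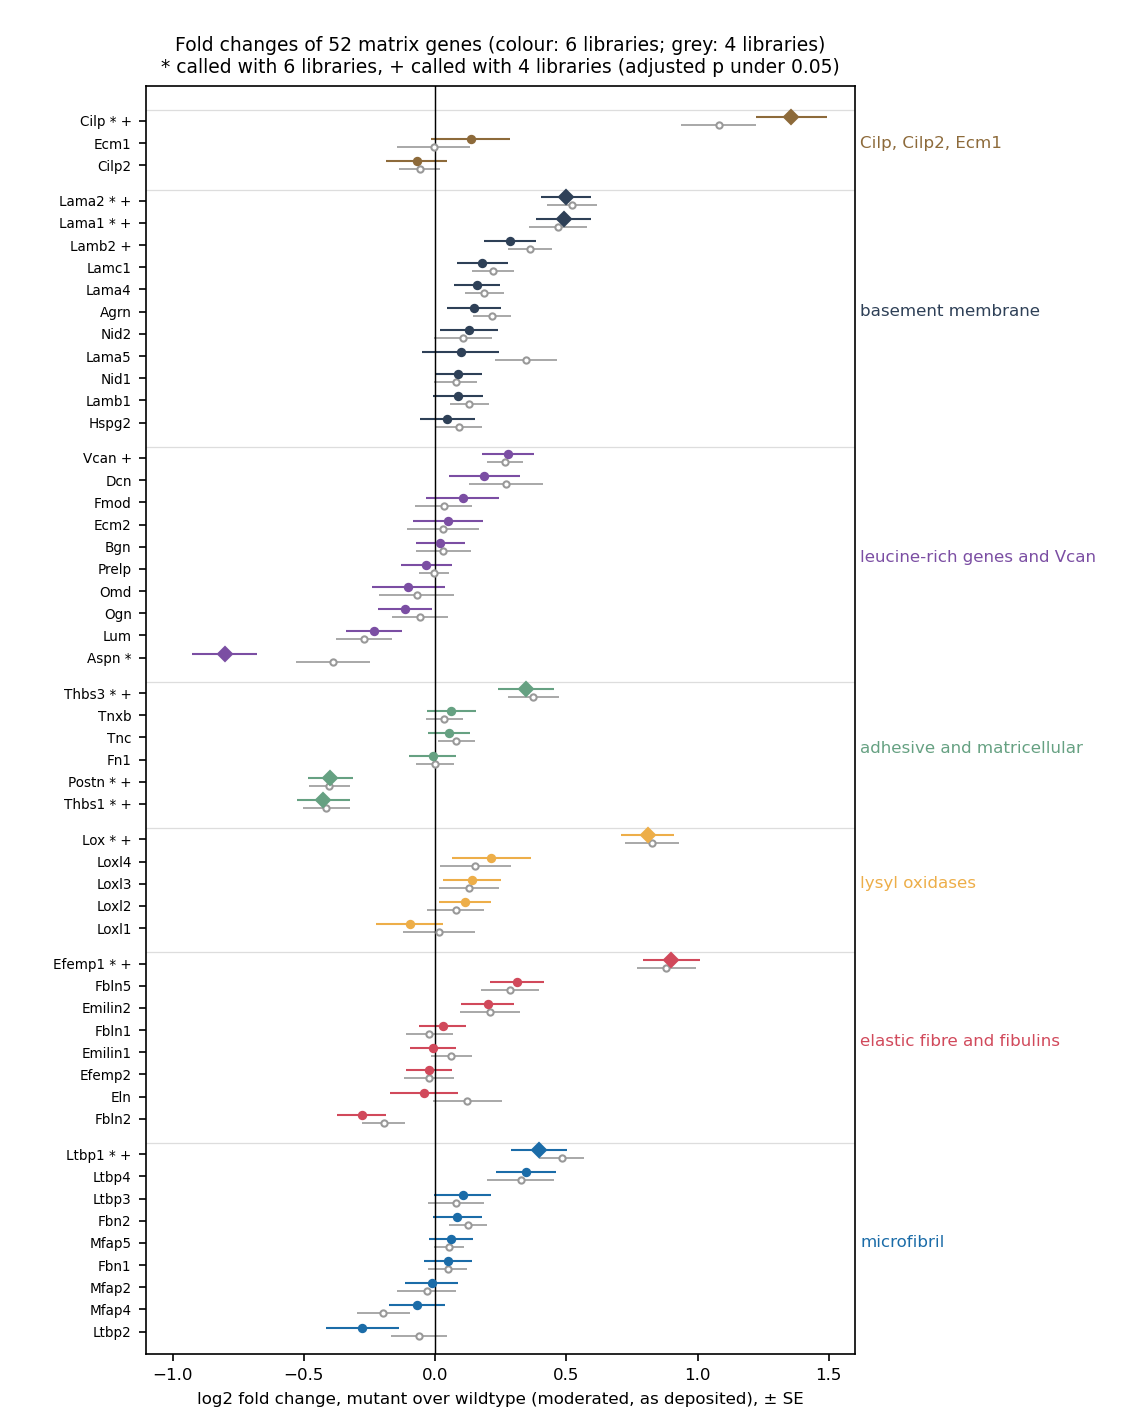
Log2 fold change of each of the 52 genes, mutant over wildtype, with its standard error as the authors deposited it, by role from the microfibril genes at the bottom to Cilp, Cilp2 and Ecm1 at the top; coloured points are the 6-library and grey points the 4-library comparison. Cilp lies farthest to the right at 1.36, Aspn farthest to the left at -0.80, and Aspn moves to -0.39 without libraries C and F.

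The promoter windows of 4 called genes are printed here from RefSeq on GRCm38.p6: Cilp and Efemp1, with the largest rises, Aspn, with the largest fall in the 6-library comparison, and Lama2, chosen after the search because its window holds the hexamer searched for. Lox is not shown. Each runs from 250 bases before to 50 bases after a transcription start, 5′ to 3′ on the gene's own strand. Capitals mark the hexamer TGACAG, the core that Meis proteins recognise, searched on both strands (as CTGTCA on the other). The Cilp window lies at chr9:65264930-65265229 (plus strand), that of Efemp1 at chr11:28852955-28853254 (plus strand), that of Lama2 at chr10:27616893-27617192 (minus strand) and that of Aspn at chr13:49544193-49544492 (plus strand).
Cilp: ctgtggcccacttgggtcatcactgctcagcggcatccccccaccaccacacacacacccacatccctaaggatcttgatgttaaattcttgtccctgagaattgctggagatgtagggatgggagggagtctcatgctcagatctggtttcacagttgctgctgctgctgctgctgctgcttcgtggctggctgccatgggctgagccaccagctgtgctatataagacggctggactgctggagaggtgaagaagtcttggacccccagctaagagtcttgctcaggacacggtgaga
Efemp1: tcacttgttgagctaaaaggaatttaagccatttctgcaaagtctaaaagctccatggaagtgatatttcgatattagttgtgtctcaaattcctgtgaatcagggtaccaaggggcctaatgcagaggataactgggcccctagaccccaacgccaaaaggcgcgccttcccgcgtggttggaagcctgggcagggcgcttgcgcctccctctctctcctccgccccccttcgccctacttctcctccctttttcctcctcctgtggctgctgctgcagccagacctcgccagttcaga
Lama2: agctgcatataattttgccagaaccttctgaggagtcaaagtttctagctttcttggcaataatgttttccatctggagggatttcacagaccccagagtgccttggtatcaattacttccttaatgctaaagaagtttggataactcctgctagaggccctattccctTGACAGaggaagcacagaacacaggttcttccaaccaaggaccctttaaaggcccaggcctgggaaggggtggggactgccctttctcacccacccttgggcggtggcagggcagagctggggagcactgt
Aspn: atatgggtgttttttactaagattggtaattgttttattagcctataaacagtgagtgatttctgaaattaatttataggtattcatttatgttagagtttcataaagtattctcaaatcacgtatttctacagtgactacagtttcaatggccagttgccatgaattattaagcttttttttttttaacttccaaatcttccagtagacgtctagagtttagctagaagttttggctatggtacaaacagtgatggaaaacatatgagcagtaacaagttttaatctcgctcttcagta
The Lama2 window held 1 match, whose first base lies 81 bases before the start, and the other three held none. Over all genes 6300 of 32851 such windows (19.2%) held the hexamer. Of the 36 genes of the 52 with a window, 5 had it: Tnc, Ltbp4, Lama2, Omd and Emilin2. Among the 7 called genes with a window it was 1, Lama2. A match is a description of letters and not a bound site, and no match says only that these letters are not in the window.

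Per kilobase of exon, the scale on which levels of different genes are compared here, versican and periostin led the set. The authors' deposited base means over all 6 libraries, divided by exon length, were 3627 per kb for Vcan, a large chondroitin sulphate proteoglycan that binds hyaluronan, and 2759 per kb for Postn. Fibronectin (Fn1) followed at 1391, tenascin C (Tnc) at 1274 and fibrillin 2 (Fbn2) at 1263 per kb. Emilin1 was at 783, fibrillin 1 (Fbn1) at 777 and the laminin chain Lamb1 at 722 per kb. The base mean is one value over all libraries, so the order of neighbours this close has no spread to be read against. The genes that differed most between genotypes were not the most abundant: Lox was at 547, Efemp1 at 455, Aspn at 407, Lama2 at 107, Lama1 at 83.4 and Cilp at 39.2 per kb.

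**Figure D2:**
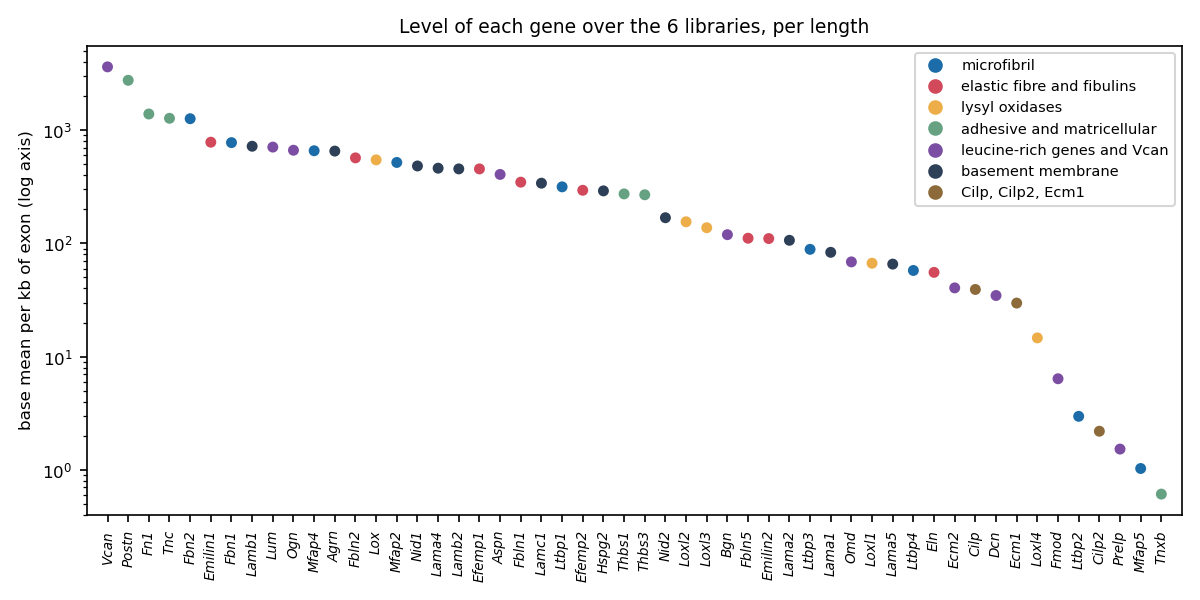
Level of each gene, as the deposited base mean over 6 libraries per kilobase of exon on a log axis, ordered from high to low and coloured by role. The points fall from 3627 for Vcan to 0.610 for Tnxb, with Postn next below Vcan.

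Among the microfibril genes Ltbp1 was higher in the mutant, and it was the only one of the 8 measured that passed the test. Of all genes tested with 6 libraries, 2.90% passed. Ltbp1 encodes a latent TGF-beta binding protein that ties the inactive cytokine to microfibrils, and the gene lies on chromosome 17, 75005568 to 75392512, on GRCm38. Normalised counts of Ltbp1 were 3687, 3757 and 4312 in mutant A, B and C and 2394, 2773 and 3348 in wildtype D, E and F. Every mutant library lay above every wildtype library, and C and F were the highest of their genotypes. The authors' deposited table of 6 libraries gave Ltbp1 a log2 fold change of 0.40 (standard error 0.107, adjusted p = 0.0111, DESeq2 Wald test). Without C and F the deposited value was 0.48 (adjusted p = 3.14e-06). limma on the recovered reads did not call Ltbp1 (adjusted p = 0.0783).

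The other latent TGF-beta binding proteins did not pass. Ltbp4, which also serves elastic fibre assembly, had normalised counts of 379, 467 and 434 in mutant A, B and C and of 300, 321 and 335 in D, E and F. The groups did not overlap, and the authors' deposited table gave a log2 fold change of 0.35 (standard error 0.113, adjusted p = 0.0700) with 6 libraries and 0.33 (adjusted p = 0.211) with 4. Ltbp2 was weakly expressed, at 13.2, 20.8 and 16.9 in the mutant and 20.8, 23.2 and 50.9 in the wildtype libraries, the last value, in F, being far above the rest. Its log2 fold change in the authors' deposited table was -0.28 with 6 libraries (standard error 0.139, adjusted p = 0.461) and -0.06 with 4. Ltbp3, at 789, 767 and 957 normalised counts in the mutant and 685, 782 and 843 in the wildtype libraries, overlapped between the genotypes.

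The structural proteins of the microfibril showed no call. Fbn2, the fibrillin that predominates in embryonic tissue, had the highest base mean of this group at 16697. The authors' deposited table put Fbn2 at 0.09 in log2 fold change (standard error 0.0920, adjusted p = 0.853). For Fbn1 the deposited table gave 0.05 (adjusted p = 0.930), and 20.1% of the Fbn1 exon length overlaps a gene model on the other strand. Mfap2, a small glycoprotein bound to fibrillin, was at 626 ± 48.3 against 631 ± 17.9 normalised counts (SD, n = 3 each). Mfap4, which binds elastin and fibrillin, was at 1230 ± 129 against 1301 ± 167. The microfibril genes as a group had a median log2 fold change of 0.07, with 5 of 8 above 0.

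Efemp1 was the elastic fibre gene that stood out, at 2.10 times the wildtype normalised count. It encodes fibulin 3, a secreted glycoprotein with calcium-binding EGF repeats, and lies on chromosome 11, 28853204 to 28926743. Efemp1 had normalised counts of 1137, 1295 and 1334 in mutant A, B and C and of 641, 500 and 656 in wildtype D, E and F. The lowest mutant library was well above the highest wildtype library. The authors' deposited table of 6 libraries gave Efemp1 a log2 fold change of 0.90 (standard error 0.109, adjusted p = 6.46e-14, DESeq2 Wald test), and that of 4 libraries gave 0.88 (adjusted p = 3.09e-12). Efemp2, which encodes the closely related fibulin 4 needed for elastic fibre formation, did not differ beyond the spread of its libraries: 1107 ± 8.46 in the mutant against 1126 ± 37.8 in the wildtype (SD, n = 3 each).

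Fbln5, whose product binds elastin and is needed for elastic fibre assembly, was at 792, 884 and 920 normalised counts in the mutant and 714, 602 and 698 in the wildtype libraries. The groups did not overlap, but the deposited table's adjusted p was 0.0698 with 6 libraries (log2 fold change 0.31, standard error 0.103) and 0.210 with 4. Fbln2, a fibulin of basement membranes and elastic fibres, ran the other way, at 3401, 3072 and 3233 in the mutant against 3908, 3644 and 4517. These groups did not overlap either, and the authors' deposited table gave -0.28 (standard error 0.0938, adjusted p = 0.0816) with 6 libraries and -0.20 (adjusted p = 0.292) with 4. Emilin2, of the elastin-associated emilin family, had normalised counts of 609, 708 and 652 against 535, 568 and 572, again without overlap. The deposited adjusted p of Emilin2 was 0.462 with 6 libraries, and it was not called with 4 either.

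Elastin itself did not differ beyond the spread of its libraries. Eln was at 448, 461 and 414 normalised counts in the mutant and 481, 323 and 570 in the wildtype libraries, so that the wildtype values lay on both sides of the mutant ones. Emilin1, the member of this group with the highest base mean, was at 3859 ± 110 against 3877 ± 341 normalised counts (SD, n = 3 each), and the authors' deposited table gave it a log2 fold change of -0.01 (standard error 0.0876, adjusted p = 0.993). Fbln1 was at 1534 ± 114 against 1501 ± 21.9. The median log2 fold change of the 8 elastic fibre genes was 0.01 with 6 libraries. In either comparison 1 of the 8 was called higher and none lower. Of all genes tested, 1.75% were called higher with 6 libraries and 1.31% with 4.

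Lox was nearly doubled in the mutant, and it was the 1 lysyl oxidase of 5 that passed, against 2.90% of all genes tested. Lysyl oxidase oxidises lysines of collagen and elastin, from which the cross-links form, and the gene lies on chromosome 18, 52516067 to 52529867. Its normalised counts were 3074, 3720 and 3505 in mutant A, B and C and 1926, 1544 and 1914 in wildtype D, E and F, a ratio of means of 1.91. No mutant library came near the wildtype range. The authors' deposited table of 6 libraries gave Lox a log2 fold change of 0.81 (standard error 0.102, adjusted p = 7.83e-13, DESeq2 Wald test), and that of 4 libraries gave 0.83 (adjusted p = 4.42e-13).

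The lysyl oxidase-like enzymes, which share the catalytic domain, were not called. Loxl1, an enzyme of elastic fibre maintenance, had normalised counts of 210 ± 20.1 in the mutant and 230 ± 32.8 in the wildtype (SD, n = 3 each). Loxl2 was at 778, 951 and 905 against 801, 820 and 779, with overlap, and Loxl3 was at 671 ± 73.4 against 596 ± 72.6 (SD, n = 3 each). Loxl3 shares 11.6% of its exon length with Htra2 on the other strand, and the strand setting of the counting was not given in the sources used here. Loxl4 was the weakest at 70.0 ± 16.6 against 53.3 ± 14.5, with overlap.

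Of the adhesive and matricellular genes Thbs3 was higher and Thbs1 and Postn were lower in the mutant, with both tables. Thbs1 encodes thrombospondin 1, a trimeric glycoprotein that can activate latent TGF-beta, on chromosome 2, 118111876 to 118127133. Normalised counts of Thbs1 were 1330, 1300 and 1521 in mutant A, B and C and 1914, 1734 and 2173 in wildtype D, E and F. The mutant libraries all lay below the wildtype ones, with C and F the highest of each genotype. The authors' deposited table of 6 libraries put Thbs1 at -0.42 in log2 fold change (standard error 0.101, adjusted p = 0.00168, DESeq2 Wald test), and that of 4 libraries at -0.41 (adjusted p = 5.35e-04).

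Thbs3 encodes a pentameric thrombospondin of the skeletal matrix, on chromosome 3, 89215180 to 89226837. Its normalised counts were 1457, 1333 and 1641 in the mutant and 992, 1092 and 1268 in the wildtype libraries. The groups did not overlap, although mutant B and wildtype F lay close together. The authors' deposited table of 6 libraries gave Thbs3 a log2 fold change of 0.35 (standard error 0.106, adjusted p = 0.0379, DESeq2 Wald test) and that of 4 gave 0.38 (adjusted p = 0.00798). The Thbs3 call is near the threshold: adjusted over every gene with a p the value was 0.0529, and limma on the recovered reads gave 0.111. The gene shares 6.59% of its exon length with Mtx1 on the other strand.

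Postn encodes periostin, a matricellular protein of periosteum, periodontal ligament and embryonic mesenchyme, on chromosome 3, 54361109 to 54391037. Its base mean of 24010 was too high for reads per library to be recovered, so that no library values are shown. The authors' deposited table of 6 libraries gave Postn a log2 fold change of -0.40 (standard error 0.0855, adjusted p = 2.99e-04, DESeq2 Wald test), a mutant level of 0.759 times wildtype, and that of 4 libraries gave -0.40 (adjusted p = 5.15e-05). Fibronectin and tenascin C, expressed at similar levels per kb to one another, were not called: the deposited log2 fold changes were -0.01 for Fn1 (standard error 0.0909, adjusted p = 0.987) and 0.05 for Tnc (standard error 0.0792, adjusted p = 0.913).

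Aspn had the largest fall of the 52 genes in the 6-library comparison, and this call depended on the libraries used. It encodes asporin, a small leucine-rich protein that binds collagen and TGF-beta, on chromosome 13, 49544443 to 49567565. Its normalised counts were 616, 604 and 669 in mutant A, B and C and 1525, 915 and 1416 in wildtype D, E and F. The mutant libraries lay close together, and wildtype E lay far below D and F but above all 3 mutant libraries. The authors' deposited table of 6 libraries gave Aspn a log2 fold change of -0.80 (standard error 0.125, adjusted p = 3.19e-08, DESeq2 Wald test). That of 4 libraries, where only D and E represent the wildtype, gave -0.39 (standard error 0.140, adjusted p = 0.152). In limma on the recovered reads the call of Aspn was lost without library D and held without each of the other five.

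Aspn lies in a cluster of small leucine-rich genes on chromosome 13 with Ecm2, Omd and Ogn, and none of these neighbours was called. Omd, which encodes osteomodulin, was at 147, 117 and 174 normalised counts in the mutant and 166, 125 and 196 in the wildtype libraries. Ogn, which encodes osteoglycin, was at 1584, 1685 and 1622 against 1968, 1471 and 1914, and as for Aspn its wildtype library E was the lowest. Ecm2 was at 235 ± 46.5 against 225 ± 37.7 (SD, n = 3 each). Per kilobase Ogn (665) lay above Aspn (407), Omd (68.7) and Ecm2 (40.5) in base mean.

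Versican, the most abundant gene of the set, passed the test only when C and F were left out. The authors' deposited table of 6 libraries gave Vcan a log2 fold change of 0.28 (standard error 0.0983, adjusted p = 0.120, DESeq2 Wald test) and that of 4 libraries gave 0.27 (standard error 0.0689, adjusted p = 0.00799). The fold changes were alike and the standard error was smaller with 4 libraries. Vcan lies on chromosome 13, 89655312 to 89742509, and its base mean of 52449 was too high for library values.

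Lumican (Lum), which spaces collagen fibrils, had normalised counts of 1478, 1700 and 1547 in the mutant and 2250, 1730 and 1713 in the wildtype libraries. The groups did not overlap, yet mutant B, wildtype E and wildtype F were nearly equal, and the deposited adjusted p was 0.374 with 6 libraries and 0.216 with 4. Decorin (Dcn) was at 222 ± 41.3 against 183 ± 34.1 and biglycan (Bgn) at 735 ± 25.3 against 723 ± 9.27 normalised counts (SD, n = 3 each). Fmod, fibromodulin, was weakly expressed at 23.6 ± 4.13 against 18.5 ± 7.49. The 9 measured genes of this group had a median log2 fold change of 0.02. With 6 libraries 1 was called lower, against 1.16% of all genes tested, and with 4 libraries 1 was called higher, against 1.31%.

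**Figure D3:**
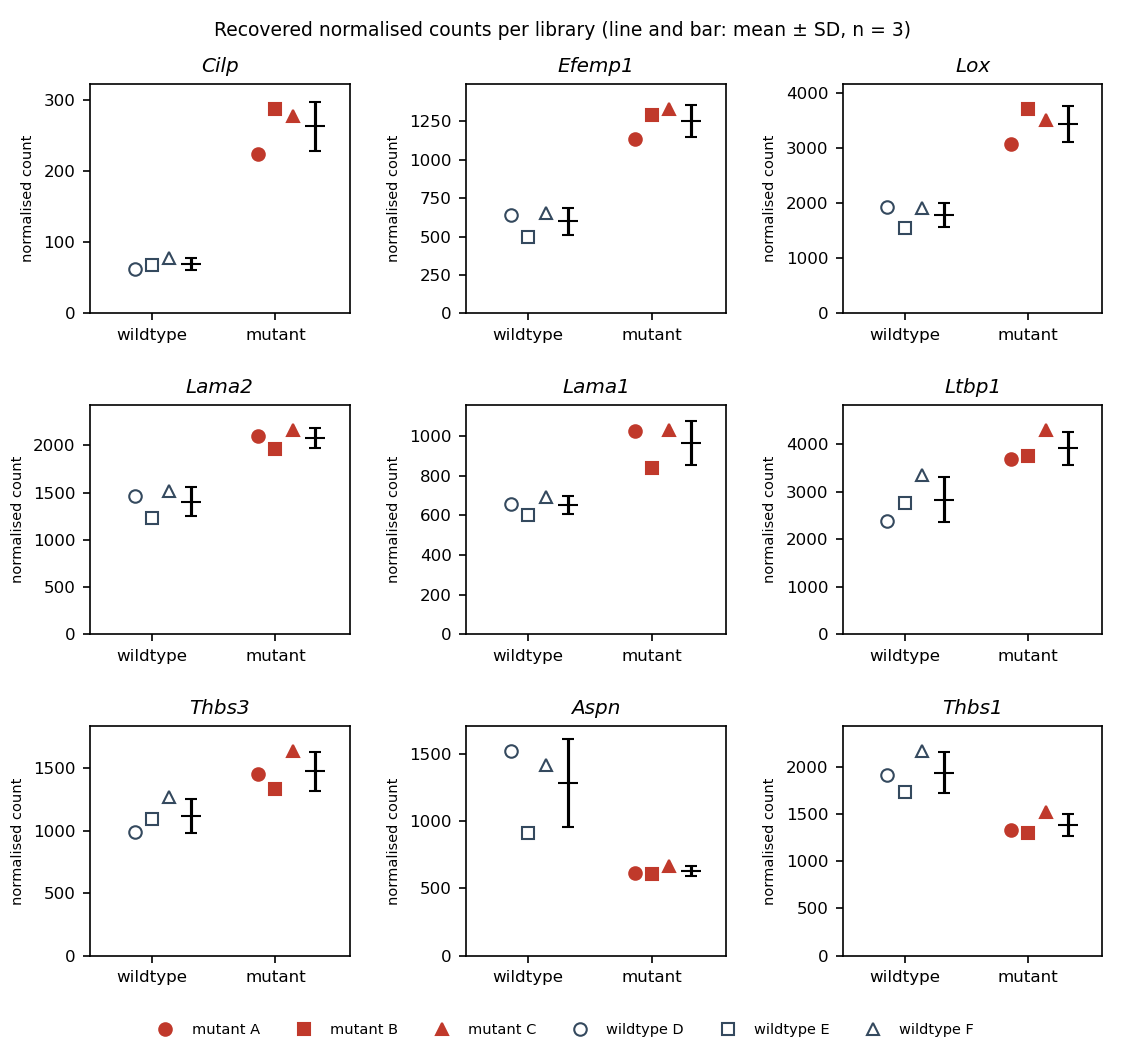
Normalised counts per library, recovered from the deposited base means, of the 9 called genes with recovered reads; filled red symbols are mutant libraries A, B and C, open symbols wildtype libraries D, E and F, and bars show mean ± SD (n = 3). The genotypes are separate in every panel; Cilp has the widest ratio, and wildtype E of Aspn lies between the mutant libraries and D and F.

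All 11 basement membrane genes had a log2 fold change above 0 in both tables. With 6 libraries 2 of them passed, against 2.90% of all genes tested, and with 4 libraries 3 passed, against 2.30%. The median of the 11 was 0.15 with 6 and 0.22 with 4 libraries. Over all measured genes, 6706 of 14559 were above 0 with 6 libraries and 7171 with 4. The genes that passed were laminin alpha chains, which carry the cell-binding globular domains of the trimer, and the beta chain Lamb2. The 7 laminin chains had a median of 0.18 with 6 and 0.35 with 4 libraries.

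Lama2 encodes the alpha chain of the laminins around muscle fibres and peripheral nerve, on chromosome 10, 26980036 to 27619758. Lama2 had normalised counts of 2099, 1965 and 2165 in mutant A, B and C and 1459, 1236 and 1520 in wildtype D, E and F. The spread within each genotype was small beside the gap between them. The authors' deposited table of 6 libraries gave Lama2 a log2 fold change of 0.50 (standard error 0.0957, adjusted p = 2.36e-05, DESeq2 Wald test) and that of 4 gave 0.52 (adjusted p = 7.17e-06). The Lama2 promoter window was the one printed above with a TGACAG match.

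Skeletal muscle markers moved with the genotype. The 9 muscle markers with recovered reads (Myod1, Myog, Myf5, Des, Actc1, Tnnt1, Myh3, Myh8 and Chrna1) summed to 1895, 5897 and 2533 normalised counts in mutant A, B and C and 813 to 1243 in the wildtype libraries, and 5 of the 10 on the list were called higher and none lower with 6 libraries. With 4 libraries 2 of these, Myog and Tnnt1, were called. Of all genes tested, 1.75% were called higher with 6 libraries and 1.31% with 4. Much of each mutant sum was Myh3, at 967, 3555 and 1424 in A, B and C, against 326 to 664 in the wildtype. Myh3 was not called in either table (adjusted p = 0.133 and 0.378, DESeq2 Wald test), nor was Myh8, at 847 in B and 78.6 in A. Mymk was not found under that name, and none of the others was listed at 0. The part of muscle in the laminin results was not tested.

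Lama1 encodes the alpha chain of the laminin of early embryonic basement membranes, on chromosome 17, 67697259 to 67822647. Its normalised counts were 1024, 839 and 1032 in the mutant and 657, 603 and 692 in the wildtype libraries. No library of one genotype reached the range of the other. The authors' deposited table of 6 libraries gave Lama1 a log2 fold change of 0.49 (standard error 0.105, adjusted p = 2.65e-04, DESeq2 Wald test) and that of 4 gave 0.47 (adjusted p = 0.00229).

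Lamb2, a beta chain found in laminins of muscle, nerve and vessels, had normalised counts of 2880, 3073 and 3291 in the mutant and 2334, 2200 and 2836 in the wildtype libraries. Wildtype F lay just under mutant A, and the other wildtype libraries were well below. In the authors' deposited tables its log2 fold change was 0.29 (adjusted p = 0.114, DESeq2 Wald test) with 6 libraries and 0.36 (adjusted p = 0.00110) with 4. The gene lies on chromosome 9, 108479736 to 108490530.

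The remaining chains showed smaller differences, and libraries C and F set much of their spread. Lama5, the alpha chain of many epithelial and endothelial basement membranes, had normalised counts of 782, 624 and 1033 in the mutant and 517, 531 and 999 in the wildtype libraries. Its highest mutant library was C and its highest wildtype library F, and F lay above A and B. The authors' deposited tables gave Lama5 a log2 fold change of 0.10 (adjusted p = 0.913) with 6 libraries and 0.35 (adjusted p = 0.0993) with 4. Lamb1, the member of this group with the highest base mean per kb, was at 7403 ± 540 against 6910 ± 819, Lamc1, the gamma chain of most laminins, at 3015 ± 262 against 2616 ± 295, and Lama4, of vessel and muscle laminins, at 5915 ± 347 against 5232 ± 420 normalised counts (SD, n = 3 each).

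The linking proteins overlapped between the genotypes. Agrin (Agrn) was at 6218, 5981 and 7105 normalised counts in the mutant and 5183, 5247 and 6693 in the wildtype libraries, with overlap only through F. Perlecan (Hspg2) was at 4242, 3820 and 4665 against 3503, 4064 and 4700, with full overlap. The nidogens, which bridge laminin and type IV collagen, were at 3467 ± 260 against 3241 ± 206 for Nid1 and 918 ± 93.8 against 827 ± 111 for Nid2 (SD, n = 3 each).

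In all 11 basement membrane genes C was the highest mutant library, and in 10 of 11 F was the highest wildtype library, Nid2 being the exception. Over all 14242 recovered genes C was the highest mutant library in 37.7% and F the highest wildtype library in 38.0%. Among the 42 measured genes of the set with recovered reads, which include these 11, C was highest in 26 (61.9%) and F in 29 (69.0%). The 8 endothelial markers summed to 6507 to 7622 normalised counts in the mutant and 6124 to 7710 in the wildtype libraries, with C and F at the top of each range. The 8 epithelial markers summed to 1075 to 1455 in the mutant and 993 to 1509 in the wildtype, again with C and F highest, and none was listed at 0. No marker of either list passed an adjusted or unadjusted p under 0.05 (0 of 8 each, DESeq2), and limma called 0. The part of vessels and of residual epithelium in the levels of C and F was not tested. limma called 2 of the 11 basement membrane genes, Lama1 and Lama2, where it called 2.15% of all genes. With the term for C and F, added once the data had been seen, it called 6, where it called 10.1% of all genes: Lama1, Lama2, Lama4, Lamb2, Lamc1 and Agrn, with adjusted p of 0.0366 for Lama4, 0.0273 for Lamc1 and 0.0386 for Agrn.

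**Figure D4:**
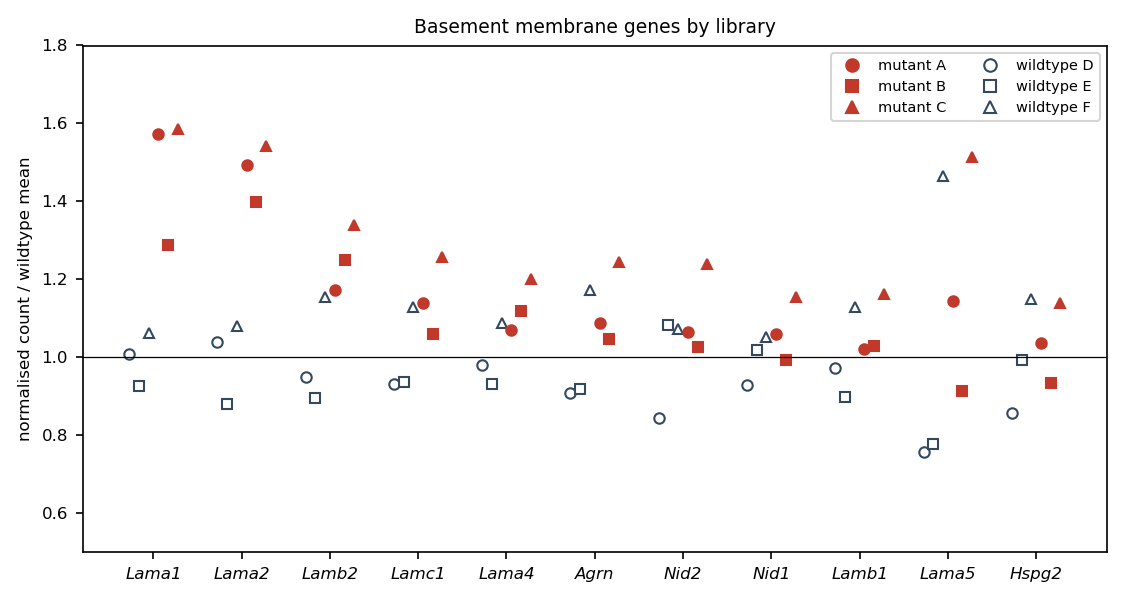
Normalised count of each basement membrane gene in each library, divided by its wildtype mean (line at 1); filled red symbols are mutant libraries, open symbols wildtype libraries. Lama1, Lama2 and Lamb2 are separate between the genotypes, and the triangles (C and F) are the highest of their genotype in nearly every gene, most of all in Lama5.

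Cilp had the largest difference of the 52 genes, at 3.79 times the wildtype normalised count. Cilp encodes cartilage intermediate layer protein, a secreted glycoprotein of cartilage and other connective tissue that binds TGF-beta, on chromosome 9, 65265180 to 65280605. Normalised counts of Cilp were 224, 289 and 278 in mutant A, B and C and 62.3, 68.4 and 78.1 in wildtype D, E and F, or 264 ± 34.8 against 69.6 ± 7.93 (SD, n = 3 each). The lowest mutant library was far above the highest wildtype library. The authors' deposited table of 6 libraries gave Cilp a log2 fold change of 1.36 (standard error 0.136, adjusted p = 2.77e-20, DESeq2 Wald test), which is 2.56 times wildtype, and that of 4 gave 1.08 (adjusted p = 1.65e-11). These deposited values are moderated, that is drawn toward 0, so they are smaller than the ratio of the counts.

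The related Cilp2 was too low to compare, with 7.65, 4.89 and 12.2 normalised counts in the mutant and 13.6, 7.75 and 10.6 in the wildtype libraries. Ecm1, a secreted glycoprotein that binds perlecan and other matrix proteins, was at 70.3, 58.7 and 115 against 67.9, 63.3 and 74.5. Its library C stood above all others, and the deposited adjusted p was 0.859. The cartilage markers Sox9, Col2a1, Acan, Matn1 and Col9a1 summed to 3958 to 4855 normalised counts in the mutant and 5067 to 5921 in the wildtype libraries. Called lower were 1 of the 5, Col9a1, with 6 libraries and 2, Col9a1 and Sox9, with 4. Among all genes tested, 1.16% were called lower with 6 libraries and 0.990% with 4. Col2a1, most of the sum, overlapped between the genotypes, and so did Acan, at 79.5 ± 20.1 in the mutant against 55.4 ± 13.3 (SD, n = 3 each). Matn1 had no read in A, B, C and E. The part of cartilage in the Cilp values was not tested.

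Sums of bone and tendon markers were lower in the mutant, as were Aspn, Postn and Thbs1. The 6 osteoblast markers (Runx2, Sp7, Alpl, Ibsp, Bglap and Spp1) summed to 813 to 1239 normalised counts in the mutant and 1632 to 1686 in the wildtype libraries, and 1 of the 6, Runx2, was called lower. Runx2 made up most of these sums, and the authors' deposited tables put it at -0.64 in log2 fold change with 6 libraries (adjusted p = 9.30e-06) and -0.33 with 4 (adjusted p = 0.321), where its call was lost. The tendon markers with recovered reads (Scx, Tnmd and Mkx, not Egr1 and Egr2) summed to 740 to 887 in the mutant and 990 to 1164 in the wildtype. Mkx was called lower in both tables. The share of all genes tested that was called lower was 1.16% with 6 libraries and 0.990% with 4. Mkx stood at 609 ± 43.7 against 847 ± 83.6 normalised counts (SD, n = 3 each), while the other tendon markers overlapped between the genotypes, Scx at 194 ± 41.1 against 188 ± 23.9. Bglap had no read in C and E, and the other bone and tendon markers with recovered reads had reads in every library. The part of these cell types in the lower values was not tested.

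Markers of the remaining cell types all had reads in every library, where reads were recovered. Of all genes tested, 1.75% were called higher and 1.16% lower with 6 libraries, and 1.31% and 0.990% with 4. Macrophage markers summed to 916 to 1080 normalised counts in the mutant and 597 to 755 in the wildtype libraries. Csf1r, Adgre1 and Mrc1, 3 of 7, were called higher with 6 libraries, and 2, Csf1r and Mrc1, with 4. The others were not called: C1qa (log2 fold change 0.20) and Ptprc (0.26) lay above 0, Cd68 (-0.05) and C1qb (-0.05) below. Neuronal markers summed to 2475 to 2574 in the mutant and 2874 to 3493 in the wildtype. Tubb3, Dcx and Elavl4, 3 of 7, were called lower with 6 libraries and 1, Dcx, with 4. Most of these sums was Ncam1, at 2192 ± 75.1 against 2538 ± 137 (SD, n = 3 each). Ncam1 was not called with 6 libraries (adjusted p = 0.330, DESeq2 Wald test). Schwann cell markers summed to 1041 to 1168 against 1179 to 1528, with 1 of 6, Ngfr, called lower with 6 libraries and not with 4 (adjusted p = 0.175, DESeq2 Wald test). Pericyte markers overlapped at 3749 to 4213 against 3258 to 4179, with Acta2 the 1 of 6 called higher in both tables. The mesenchyme markers with recovered reads (Twist1, Osr2 and Msx1) summed to 1725 to 2353 in the mutant and 2141 to 3055 in the wildtype, and 2 of the 6 on that list, Prrx1 and Twist1, were called lower in both tables, with Pdgfra called higher with 4 libraries alone. The labelled tissue thus showed its mesenchymal markers in every library, together with RNA of muscle, vessel, nerve and macrophage markers, whose part in the matrix results was not tested.

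**Figure D5:**
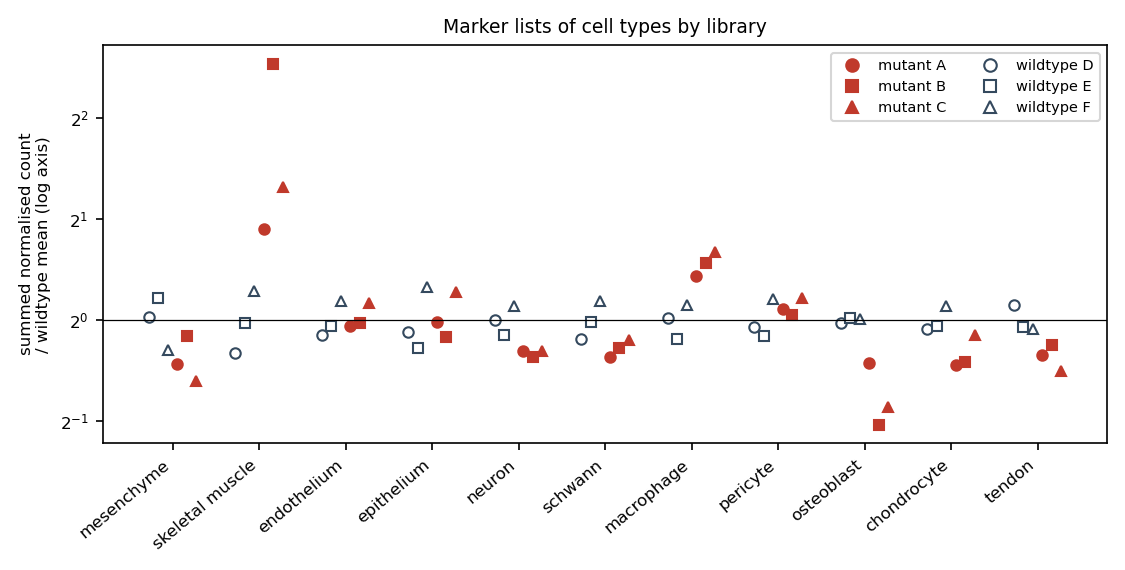
Summed normalised counts of each marker list in each library, divided by the wildtype mean of the list, on a log axis; filled red symbols are mutant libraries, open symbols wildtype libraries. Skeletal muscle lies highest above 1 in the mutant, with library B at 5897 summed counts, of which Myh3 held 3555. The osteoblast sums of the mutant lie below all wildtype sums.

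Other genes of the matrix, on lists that hold none of the 52, numbered 98 (Itgb1 stands on 2 of the lists), of which 92 were measured. With 6 libraries 10 of them passed, against 2.90% of all genes tested: 8 were higher, against 1.75%, and 2 lower, against 1.16%. Their median log2 fold change was 0.06, against -0.013 over all measured genes. Among glycoproteins 5 of 39 were called: Tgfbi, a TGF-beta-induced adhesive protein (0.44), Hmcn1, a giant fibulin-family protein (0.47) and Adamtsl1 (0.42) were higher, and Tnn, the tenascin of bone surfaces (-0.55), and Fndc1 (-0.66) were lower, all as log2 fold changes of the authors' deposited table. Tnn and Fndc1, like Aspn, were not called with 4 libraries: the smaller deposited table lists adjusted p-values of 0.368 and 0.104. Of 18 other proteoglycans 0 were called by DESeq2 in either table or by limma, and 3 had an unadjusted p under 0.05, 1 higher and 2 lower.

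Of 27 basement membrane partners, 3 were called in the authors' deposited table, all higher: Col4a6, a type IV collagen chain, at a log2 fold change of 0.52 (adjusted p = 0.00767), Npnt, the integrin ligand nephronectin, with 0.43 (adjusted p = 0.00443), and Smoc2, a calcium-binding matricellular protein, with 0.38 (adjusted p = 0.0140). The same deposited table called 2 of 15 genes of latent TGF-beta storage and signalling, both higher: the ligand Tgfb2 at 0.42 (adjusted p = 0.0112) and the co-receptor Tgfbr3 at 0.42 (adjusted p = 0.00276), both log2 fold changes. Over all genes tested with 6 libraries, 2.90% were called and 1.75% were called higher. With 4 libraries 1.31% of all genes tested were called higher and 0.990% lower. Without C and F, Npnt and Tgfb2 were not called (adjusted p-values of 0.0650 and 0.175, from the smaller deposited table), and Col4a6, Smoc2 and Tgfbr3 were. Called with 4 libraries alone, in the same smaller deposited table, were the basement membrane protein Frem2 (log2 fold change 0.41, adjusted p = 3.58e-04), Emilin3 (0.40, adjusted p = 0.0330) and Aebp1 (-0.47, adjusted p = 0.0235).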

How the data were processed

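The 6 samples, 3 per genotype, were made with RNeasy Micro Plus RNA, reverse transcription, amplification and TruSeq RNA v2 libraries, per the labels' protocols. The submitters' processing notes name HISAT2, featureCounts and DESeq2 and the builds GRCm38 and mm10, with versions, settings and strand not given in the sources used here. Of 3 tables, 2 were used; the third repeats 1613 rows of the first. The base mean is a signal (mean of counts over size factors), as deposited by the authors. Fold changes and standard errors are log2 values as deposited, with directions resting on the sign reading described above. The Wald statistic is a score deposited by the authors, and the p-values and adjusted p-values are those of the authors' deposited DESeq2 Wald test. The series' text describes each table as 1 replicate pair; the tables instead rest on 6 and on 4 libraries.

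Reads per library were computed from the base means. Single-read genes give each library's size factor (0.775 to 1.44) and, by the sign of their fold change, its side. For the other genes the 6 whole numbers that give both deposited base means were searched for near the counts implied by the fold change. A solution was kept where it was the only one in the range searched. Where a range held several, or could not be searched through, a narrower range was used. In the narrowest, the nearest of several was kept if the next lay farther by a scaled squared distance of at least 20. Tested on simulated data for 20244 genes, the search recovered 19664, 0 of them wrongly. The simulated counts were drawn around the same fold changes that the search was given. Genes whose counts lie far from their moderated fold change were therefore not covered by that test. Of real genes with a base mean of 10 to 3000, 99.0% were recovered. Size factors of the recovered reads differed from those used by at most 0.244%. Samples are the replicates, so p-values set the difference between genotypes against the spread between these samples, as each test estimates it.

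A gene was called at an adjusted p under 0.05 of the 6-library table, adjusted over the whole table. limma 3.58.1 (R 4.3.3, trend, log2 of normalised count + 1, base mean at least 10) was an alternative, tested on simulated data; the others are listed with their effect in the closing section. Exon lengths and coordinates are from GENCODE M21 on GRCm38, promoters from RefSeq. Named with full values were genes called in either table, the highest base mean of each role group, the 5 largest fold changes not called, and other matrix genes called; further members were given after their values were seen. The members and lists were chosen with earlier results of these data known. Names turned into dates (27 rows of the 6-library comparison) were matched to no gene. Those with an adjusted p stayed among the 14942 genes tested. Without them 14921 genes had an adjusted p, and the number called was also 434. The 4-library shares were likewise taken over all rows with an adjusted p.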

Additional observations from a re-analysis of the deposited data

How the results depend on the processing

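No paired analysis was possible because the tables carry no replicate number for any library. The 10 genes called of the 52 became 11 with 4 libraries (Aspn lost, Lamb2 and Vcan gained), 9 with p adjusted over every gene (Thbs3 lost) and 12 with fold changes centred on their median (Fbln5 and Ltbp4 gained), and remained the same 10 with p adjusted over genes with base means of at least 10 or 100. limma on the recovered reads, which could not test Postn, called 7 at pseudocounts of 0.5, 1 and 5, without Ltbp1 and Thbs3. Scaled by library totals it called 6 (Thbs1 also lost).

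With a term for C and F, chosen after the data were examined, limma called 16 of the 52 genes (13 higher and 3 lower), 21 other matrix genes and 1444 of all genes; without the term it called 7, 6 and 306, where the deposited test called 10, 10 and 434. Other matrix genes also numbered 6 at each pseudocount and scaled by library totals. Leaving out one library at a time gave 3 (without D) to 9 (without F) of the 52 genes, 0 without D, 2 without E and up to 9 (without F) other matrix genes and, of all genes, 126 without D, 178 without A, 187 without E, 206 without B, 277 without C and 320 without F. Cilp, Efemp1 and Lox were called in each of these fits; Aspn was lost without D, Lama2 without A or D, Lama1 without A, D or E, and Thbs1 without A, B, D or F. Emilin1, at -0.01 and not called, was positive with 4 libraries (0.0616), centred (0.0071), scaled by library totals (0.0261) and without A (0.0182) or F (0.0636). The median log2 fold change over the 48 measured genes (42 in limma) moved by less than its spread between libraries, an SD of 0.116. That SD is larger than the median of 0.09 itself, so the comparison cannot show the median to be stable. Genes with base means above 3000 were recovered less often, and 3 libraries a side limit what small differences can pass. The causes of these changes were not tested.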
